A study of Mus musculus with 8 samples.

Results

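The 10 genes of endoplasmic reticulum (ER) protein folding and of the unfolded protein response followed here in mouse prostate were Hspa5, Hsp90b1, Calr, Pdia4, Pdia6, Xbp1, Atf4, Ddit3, Dnajb9 and Sdf2l1. They were chosen by name, as the rows of the deposited count table whose Ensembl identifier carries 1 of these 10 symbols in the GENCODE M21 annotation. The 10 symbols matched 11 of the 54532 rows. The additional row is a second, short Ddit3 entry that held 0 counts in every mouse and was left out of the tests. All 10 genes were among the 15472 genes that passed the filter on low counts.

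Bulk RNA-seq was made from whole prostates of 8 male NOD mice (NOD/ShiLtJ), an inbred strain that develops autoimmune inflammation. The control group (mice 1, 3, 65 and 69) was given PBS, and the etanercept group (mice 17, 19, 50 and 52) was given 4 mg/kg of etanercept, a protein made from a TNF receptor, which takes up free TNF. Both were injected 2 times per week over 5 weeks and sampled at an age of 30 weeks. The study pooled mice with and without diabetes in its treatment groups, and the labels do not say which of the 8 mice, if any, had it. The total count per mouse was 25178942, 14088213, 13760669 and 18870437 in control 1, 3, 65 and 69, and 17739635, 19698140, 17437320 and 14246828 in etanercept 17, 19, 50 and 52. Levels are given as CPM, counts scaled to library size, after TMM scaling, a scaling of library sizes that limits the weight of a few very abundant genes.

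Secretory cells push large amounts of protein through the ER, where chaperones such as BiP (Hspa5) hold nascent chains and disulfide isomerases join their cysteines. When unfolded protein accumulates, the sensors IRE1, PERK and ATF6 signal to the nucleus and raise the transcription of chaperones, isomerases and degradation factors. The prostate epithelium secretes most of the protein of the prostatic fluid, and plasma cells are another cell type with a heavily loaded ER.

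Markers of the secretory luminal epithelium were present in every mouse. Krt8, Krt18, Cd24a and Hoxb13 were detected in all 8 libraries. A pair of libraries stood apart by transcripts of other tissues. Etanercept 17 held seminal vesicle transcripts, with Svs2 at 69630 CPM, Svs5 at 15500 CPM and Pate4 at 9327 CPM, whereas Svs2 reached 2370 CPM in control 69, 402 CPM in etanercept 50 and at most 12.5 CPM elsewhere. Control 3 held the skeletal muscle gene Myh4 at 352 CPM, against at most 1.27 CPM in the other mice, and the highest levels of the adipocyte gene Adipoq (40.1 CPM) and of Igkc (19080 CPM). The 5 listed skeletal muscle genes together set it apart less. They summed to 1714 CPM in control 3, but also to 1311 CPM in etanercept 52 and 1031 CPM in etanercept 50. Results are also given without etanercept 17 and control 3. In whole tissue, fewer cells of a type and less RNA per cell cannot be told apart.

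The chaperones of the ER lumen bind newly made proteins. Gene positions are those of GRCm38. Hspa5, which encodes the HSP70 chaperone BiP (ENSMUSG00000026864, chr2:34771970-34777547), was at 1378, 1702, 1784 and 1564 CPM in control 1, 3, 65 and 69, and at 2435, 1165, 1006 and 1905 CPM in etanercept 17, 19, 50 and 52. The etanercept mice lay on both sides of the controls, with 2 above and 2 below all 4 of them. Hsp90b1, the HSP90 of the ER (GRP94, ENSMUSG00000020048, chr10:86690209-86705509), was at 641, 1018, 1353 and 765 CPM in the controls and at 1849, 690, 710 and 2116 CPM in the etanercept mice. Etanercept 17 and 52 were above every control, while etanercept 19 and 50 lay near the lowest ones, so that the groups overlapped. Calr, the lectin chaperone calreticulin of glycoproteins (ENSMUSG00000003814, chr8:84841850-84846934), was at 1310, 1469, 2252 and 1992 CPM in the controls and at 2049, 1362, 1264 and 2636 CPM in the etanercept mice. The ranges overlapped, and the same pair of etanercept mice was high.

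The cochaperones assist BiP. Sdf2l1, which works with BiP (ENSMUSG00000022769, chr16:17130138-17132383), was at 182, 151, 255 and 173 CPM in control 1, 3, 65 and 69 and at 247, 125, 107 and 233 CPM in etanercept 17, 19, 50 and 52. Control 65 and etanercept 17 and 52 were the high mice, and the groups overlapped. Dnajb9 (ERdj4, ENSMUSG00000014905, chr12:44205559-44210326), a J protein that stimulates BiP, was at 99.7, 89.3, 120 and 81.9 CPM in the controls and at 155, 82.3, 105 and 89.5 CPM in the etanercept mice. Here etanercept 52 was not among the high mice, and etanercept 17 was the highest.

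Both disulfide isomerases varied in the same way as the chaperones. Pdia4 (ERp72, ENSMUSG00000025823, chr6:47796141-47813430) was at 341, 364, 450 and 224 CPM in control 1, 3, 65 and 69 and at 569, 224, 192 and 823 CPM in etanercept 17, 19, 50 and 52. Its highest mouse was 4.28-fold above its lowest, the widest range of the 10 genes. Pdia6 (P5, ENSMUSG00000020571, chr12:17266545-17284770) was at 1014, 1404, 2405 and 1095 CPM in the controls and at 2113, 1274, 937 and 2012 CPM in the etanercept mice. Control 65 and etanercept 17 and 52 were again above the other 5 mice.

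The transcription factors did not share a single pattern. Atf4, the factor translated when eIF2α is phosphorylated (ENSMUSG00000042406, chr15:80255184-80257541), was at 204, 200, 273 and 177 CPM in control 1, 3, 65 and 69 and at 255, 200, 153 and 276 CPM in etanercept 17, 19, 50 and 52. Its range was the narrowest of the 10 genes, at 1.81-fold, with the same high mice as the chaperones. Xbp1, whose transcript is spliced by IRE1 (ENSMUSG00000020484, chr11:5520659-5525893), was at 256, 490, 401 and 357 CPM in the controls and at 245, 343, 342 and 251 CPM in the etanercept mice. It was highest in control 3 and lowest in etanercept 17 and 52, and gene counts do not separate its spliced from its unspliced form. Ddit3 (CHOP, ENSMUSG00000025408, chr10:127290774-127296288), a factor of the ATF4 branch, was at 33.0, 10.9, 37.6 and 10.3 CPM in the controls and at 13.9, 11.2, 13.3 and 16.8 CPM in the etanercept mice. Control 1 and 65 were above all other mice, and control 3 and 69 below all etanercept mice.

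**Figure D1:**
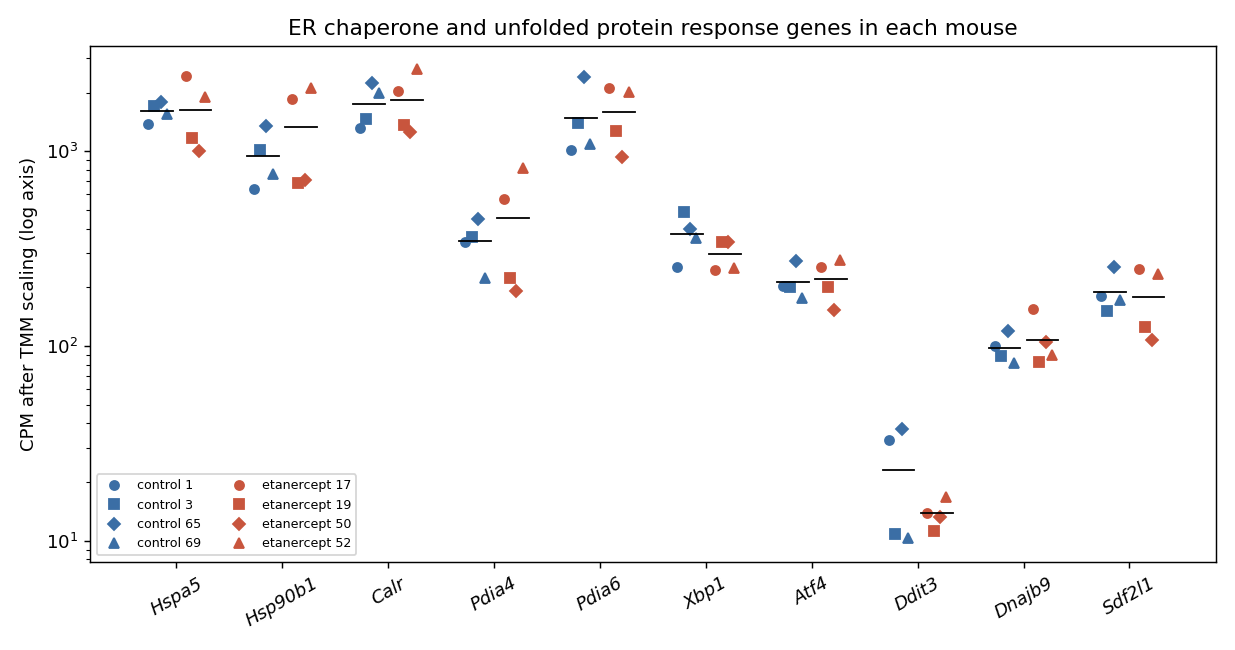
Level of each of the 10 genes in each of the 8 mice, in CPM after TMM scaling on a log axis. Symbols mark mice, blue for control and red for etanercept, and black lines are the means of 4 mice; for every gene the points of the 2 groups overlap.

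Levels of different genes were compared per kilobase of exon. Calr was the highest, at 622 ± 178 CPM per kb (SD, n = 8), and was above the next gene in 8 of 8 mice. Pdia6 (409 ± 151) and Hspa5 (383 ± 107) did not differ beyond their spread, with Pdia6 the higher in 4 of 8 mice. Hsp90b1 followed at 283 ± 142 CPM per kb, a step smaller than its SD, though it was below Hspa5 in 7 of 8 mice. It was above Sdf2l1 in 7 of 8 mice. Sdf2l1 (166 ± 50.6), Pdia4 (166 ± 89.2), Xbp1 (103 ± 26.1) and Atf4 (92.2 ± 19.3) came next, and from Pdia6 down to Atf4 each step between neighbours was smaller than the larger of their SDs. Dnajb9 at 40.3 ± 9.61 CPM per kb was below Atf4 in 8 of 8 mice, and Ddit3 at 10.7 ± 6.26 CPM per kb was below Dnajb9 in 8 of 8. Counts of Hsp90b1, Pdia6, Ddit3 and Dnajb9 are uncertain to the extent that exons of another gene on the opposite strand overlap theirs, since the counting is not stated to use strand. The longest such overlaps are 415 bases (1810014B01Rik), 50 bases (Atp6v1c2), 68 bases (Mars) and 14 bases (Mir5627). On the same strand, Gm15344 (84 bases) and Gm25745 (133 bases) overlap Hsp90b1, Mir704 (14 bases) overlaps Pdia4, and the second Ddit3 entry (105 bases) overlaps Ddit3.

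The first comparison asked whether the genes differed between etanercept-treated and control mice. By the quasi-likelihood test of edgeR, adjusted by Benjamini-Hochberg over all tested genes, 0 of the 10 genes and 0 of 15472 genes (0%) passed an adjusted p of 0.05. Before adjustment p was 0.05 or less for 0 of 10 and 1024 of 15472 (6.62%), and DESeq2 called 0 of the 10 and 25 of 15350 genes (0.163%). Without 1 mouse in turn, the edgeR count before adjustment ranged from 675 of 15996 without control 65 to 1826 of 15975 without control 69. It held 1 of the 10 genes when control 1, control 3 or control 69 was left out, and 0 otherwise. The largest differences were those of Ddit3, with a log2 change of -0.73 ± 0.43 (SE; edgeR with Benjamini-Hochberg adjustment, adjusted p = 0.814), and of Hsp90b1, with 0.51 ± 0.42 (adjusted p = 0.879). Leaving out 1 mouse moved both: the change of Ddit3 was -0.40 without control 65 and that of Hsp90b1 0.18 without etanercept 52. Xbp1 had a log2 change of -0.35 ± 0.23 (edgeR with Benjamini-Hochberg adjustment, adjusted p = 0.837), with means of 376 ± 97.5 CPM in control and 295 ± 54.3 CPM in etanercept mice (SD, n = 4 each). Its change was -0.12 without control 3 and etanercept 17 and -0.51 without control 1. For Hspa5 the log2 change was 0.02, with a 95% interval from -0.67 to 0.71. The signs were positive for 7 of the 10 genes and negative for 3, and the median log2 change was 0.05, against -0.01 over all tested genes. Without 1 mouse in turn, the median of the 10 genes ranged from -0.09 without etanercept 52 to 0.19 without etanercept 50. The signs of Hspa5 and Atf4 turned negative with library sizes alone, and without control 3 and etanercept 17 so did those of Hspa5, Calr, Pdia6, Atf4 and Dnajb9. Median log2 changes of markers of other cell types were -3.39 for adipocyte, -2.88 for skeletal muscle, -0.95 for plasma cell and -0.79 for leukocyte markers. They were -0.62 for both basal epithelium and endothelium, 0.31 for fibroblast and 0.76 for smooth muscle markers. In edgeR 0 of these markers passed after adjustment, and DESeq2 called 2 adipocyte markers. Their part in the levels of the 10 genes was not tested.

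The wider pathway gave the same count. Of 101 listed genes of ER folding and stress signaling, all of them tested, 0 passed the adjusted threshold in edgeR and 0 in DESeq2. Before adjustment, at p of 0.05 or less, there were 6 higher and 2 lower of the 101, near the share of 6.62% over all tested genes, of which 463 were higher and 561 lower. The 2 genes with the smallest p in each role were, among the sensors and their proteases, Mbtps2 (log2 change 0.45) and Ern1 (0.47), among the transcription factors Ddit3 and Xbp1, and among the targets of ATF4 Asns (0.76), which makes asparagine, and Chac1 (1.55), which degrades glutathione. They were Dnajc3 (0.47) and Sdf2 (-0.30) among the chaperones, Txndc5 (-0.38) and Erp29 (-0.19) in oxidative folding, and Edem3 (0.97) and Syvn1 (-0.49) in ER-associated degradation. In translocation and glycosylation they were Sec61b (-0.40) and Srp19 (-0.32), and in ER exit Sec23a (0.36) and Sec24d (0.44). Over the sets of mice left out, the smallest change in size was 0.61 for Chac1 (without etanercept 52), 0.26 for Dnajc3 (without control 1) and -0.05 for Erp29 (without control 65). Without control 3 and etanercept 17 it was 0.22 for Ern1, 0.57 for Edem3 and -0.20 for Txndc5. None of these genes passed, the smallest adjusted p (edgeR, Benjamini-Hochberg) being 0.739.

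The variation among mice was larger than that between the groups, and most of the genes shared it. For 7 of the 10 genes (Hspa5, Hsp90b1, Calr, Pdia4, Pdia6, Atf4 and Sdf2l1) the 3 highest mice were control 65, etanercept 17 and etanercept 52. The 21 pairs among these 7 genes, which were singled out after their values were seen, had Pearson's r between 0.74 and 0.93 over the 8 mice. Xbp1 had a negative r with each of the other 9 genes, from -0.43 to -0.11. The mean z-score of the 10 genes was 0.95, 0.78 and 0.69 in control 65, etanercept 17 and etanercept 52, and between -0.90 and -0.08 in the other 5. The distance between the 3 mice and the others differed by gene: the lowest of the 3 and the highest of the other 5 were at 2012 and 1404 CPM for Pdia6, and at 2049 and 1992 CPM for Calr. The values of r are given as a description, without a test, and the part of cell composition in the pattern was not tested.

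**Figure D2:**
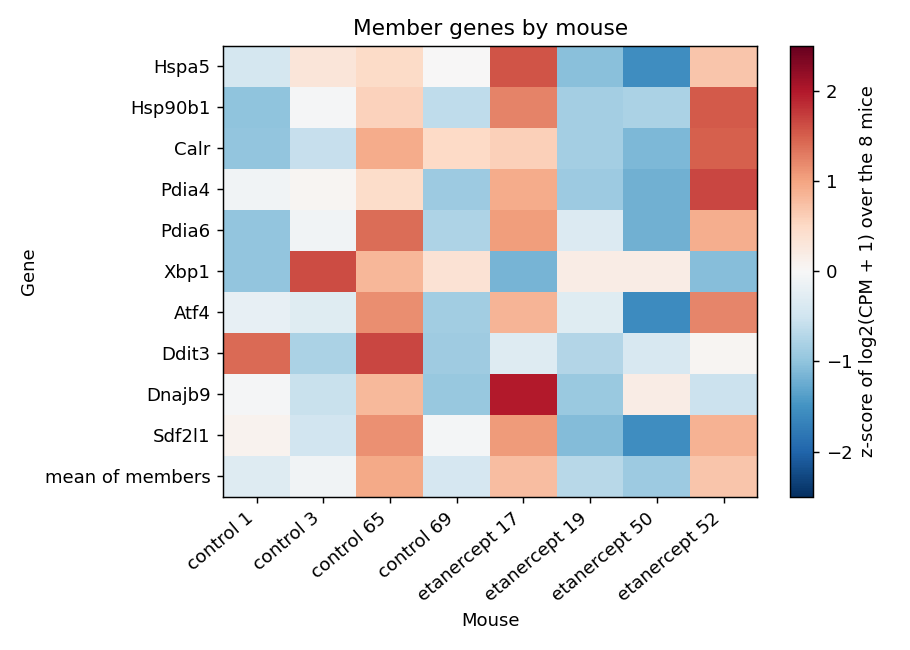
Z-score of log2(CPM + 1) over the 8 mice for each of the 10 genes and for their mean, with genes in rows and mice in columns; red is above and blue below a gene's own mean. Control 65, etanercept 17 and etanercept 52 are red in 7 of the 10 genes, and Xbp1 is blue in both of these etanercept mice.

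Among genes outside the 10, those most like their mean z-score were Pdia3 (Pearson's r = 0.955 over 8 mice) and Ddost (0.954), an isomerase and a subunit of the oligosaccharyltransferase. Agpat1 (0.951), Neu1 (0.950), Creld2 (0.950), Tmed3 (0.947), Cyp7b1 (0.944), Gramd1a (0.938), Ubqln4 (0.938) and Pllp (0.923) followed. Creld2, an ER stress-inducible gene, was at 219, 294, 578 and 196 CPM in control 1, 3, 65 and 69 and at 1062, 174, 159 and 754 CPM in etanercept 17, 19, 50 and 52. Its high mice were those of the 7 genes. Of the 91 pathway genes outside the 10, 18 had an r of at least 0.7 (19.8%), against 549 of 15456 tested genes (3.55%). By role, the median r was 0.73 for the other chaperones and cochaperones, 0.52 for the targets of ATF4, 0.26 for the transcription factors outside the 10 and 0.25 for translocation and glycosylation. It was 0.18 for oxidative folding, 0.13 for ER-associated degradation, 0.02 for ER exit and -0.10 for the sensors and their proteases, against 0.006 over all tested genes.

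The second question was how the genes relate to secretory gene load. Prostate secretory load was the summed CPM of 12 genes of prostatic secretion, and was 91639, 120596, 126565 and 296537 CPM in control 1, 3, 65 and 69 and 111137, 260110, 243472 and 184342 CPM in etanercept 17, 19, 50 and 52. Control 69 and etanercept 19 and 50 had the highest load, and the groups overlapped. The mean log2 load was 17.12 ± 0.73 in control and 17.53 ± 0.56 in etanercept mice (SD over 4 mice; exact permutation test, two-sided, p = 0.429). The difference ranged from 0.18 without control 1 to 0.76 without control 69. With 4 mice against 4 the smallest p of this test is 0.0286.

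The slope of each gene on log2 load was fitted with the group as a term. In edgeR with Benjamini-Hochberg adjustment 1264 of 15460 genes (8.18%) passed, 743 with a positive and 521 with a negative slope, and 0 of the 10 genes did. Before adjustment the counts at p of 0.05 or less were 1 of 10 and 4012 of 15460 (26%), and DESeq2 called 0 of 10 and 2444 of 13360 (18.3%). Slopes were negative for 9 of the 10 genes, with a median of -0.37 log2 units per log2 unit of load, against -0.04 over all tested genes. Pdia4 had a slope of -0.73 (95% interval -1.52 to 0.06), Ddit3 of -0.69 (-1.51 to 0.13) and Dnajb9 of -0.36 (-0.69 to -0.02; edgeR with Benjamini-Hochberg adjustment, adjusted p = 0.167). Xbp1 alone had a positive slope, of 0.21 (-0.23 to 0.65), and that of Calr was -0.03 (-0.61 to 0.56). Without control 3 and etanercept 17 Ddit3 passed, with a slope of -1.11 (edgeR with Benjamini-Hochberg adjustment, adjusted p = 0.0213), among 2054 genes called, and without control 69 its slope was -0.25. The slope of Dnajb9 ranged from -0.51 without control 69 to -0.18 without etanercept 17, and that of Xbp1 from 0.08 without control 1 to 0.56 without control 69. The slope of Hspa5 ranged from -0.78 without control 69 to -0.11 without control 3 and etanercept 17, and Calr changed sign without etanercept 19, at 0.08. Before adjustment, 5 of the 10 genes were at p of 0.05 or less without control 1, beside 3538 of 15843 genes, and 5 with animal number as a term, beside 2945 of 15460, and 0 were without control 65 or without etanercept 19. The number of genes called was 243 without control 69, 440 without etanercept 19 and 565 without etanercept 50, 860, 837 and 979 without control 1, control 65 and etanercept 52, and 0 when the mean of the log2 levels replaced the log2 of the sum. It was 346 with animal number as a term. That term separates mice 1, 3, 17 and 19 from mice 50, 52, 65 and 69, and each group holds mice of both sets.

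Over the 8 mice, Pearson's r with the load was -0.61 for Ddit3 (exact permutation p = 0.122) and Spearman's rho was -0.57 (exact permutation p = 0.151). Without control 69 and etanercept 19, the mice farthest from the median load, r was -0.42. For Dnajb9 r was -0.57 (exact permutation p = 0.139) and rho -0.62 (exact permutation p = 0.115), and r was -0.27 without the same mice. These were among 30 relations computed, of the 10 genes with 3 loads, and 0.115 was the smallest p among them. The slope fits held a common slope for both groups. Within the groups of 4 mice, r with the prostate load differed in sign for Hspa5 (0.15 in control, -0.927 in etanercept mice) and Calr (0.575 and -0.637). For the other genes the sign was the same in both groups.

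The direction of these slopes depended on 1 gene of the load. Sbp, the spermine-binding protein known from ventral prostate secretion, was at 1545, 63770, 15610 and 225400 CPM in control 1, 3, 65 and 69 and at 1615, 173800, 179900 and 55850 CPM in etanercept 17, 19, 50 and 52. It was low in control 1 and etanercept 17 and made up 52.9% of the load in control 3, 76% in control 69, 66.8% in etanercept 19 and 73.9% in etanercept 50. With the load taken without Sbp, 9 of the 10 slopes were positive, Xbp1 was negative at -0.46, and the median slope was 0.85, against -0.02 over all tested genes. In edgeR with Benjamini-Hochberg adjustment 0 of the 10 genes and 0 of 15460 (0%) passed. Before adjustment, at p of 0.05 or less, there were 5 of 10, against 681 of 15460 (4.4%), namely Sdf2l1 (slope 1.02, 95% interval 0.44 to 1.59), Atf4 (0.67, 0.18 to 1.16), Pdia4 (1.3, 0.27 to 2.34), Pdia6 (0.96, 0.09 to 1.83) and Ddit3 (1.16, 0.09 to 2.22). DESeq2 was not run with this load. Another gene, 9530053A07Rik, made up much of it in some mice, at 75490 of 90090 CPM in control 1. In etanercept 50 it was at 15570 of 63570 CPM.

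After the levels had been seen, the list was divided into Sbp, Sbpl, Spink1 and Msmb and the other 8 genes, the most abundant of which was 9530053A07Rik. Among the 8, 9530002B09Rik and Apof were highest in control 69 and etanercept 19 and 50, as Sbp was. The summed level of the 8 genes was 89603, 43806, 106895 and 26044 CPM in control 1, 3, 65 and 69 and 109105, 50052, 28531 and 112358 CPM in etanercept 17, 19, 50 and 52. Of these sums, 9530053A07Rik alone was 75490, 33120, 90640 and 11980 CPM in the controls. In the etanercept mice it was 92230, 34410, 15570 and 88450 CPM, so that this load too followed largely 1 gene. Control 1 and 65 and etanercept 17 and 52 formed the high set of 4 mice and the others the low set, and control 1 was the high mouse in which the 7 genes were not high. On this load 182 of 15464 genes passed in edgeR with Benjamini-Hochberg adjustment (1.18%), and 0 of the 10 genes did. Before adjustment the counts at p of 0.05 or less were 6 of 10 and 2366 of 15464 (15.3%). Pdia4 had the largest slope, at 0.71 (edgeR with Benjamini-Hochberg adjustment, adjusted p = 0.0932). Since the mice formed separate sets of 4, no correlation is given, and since the division followed the values, these slopes are a description.

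The log2 load of Sbp, Sbpl, Spink1 and Msmb alone ran from 10.99 in etanercept 17 to 18.05 in control 69, against 16.48 to 18.18 for the 12 genes, so that slopes per log2 unit are not on a like range. On it 9 of the 10 slopes were negative, between -0.15 and -0.01, and Xbp1 had 0.08. In edgeR with Benjamini-Hochberg adjustment 0 of 10 and 723 of 15468 genes (4.67%) passed, and before adjustment 1 of 10 (Dnajb9, slope -0.08) and 3545 of 15468 (22.9%) were at p of 0.05 or less.

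**Figure D3:**
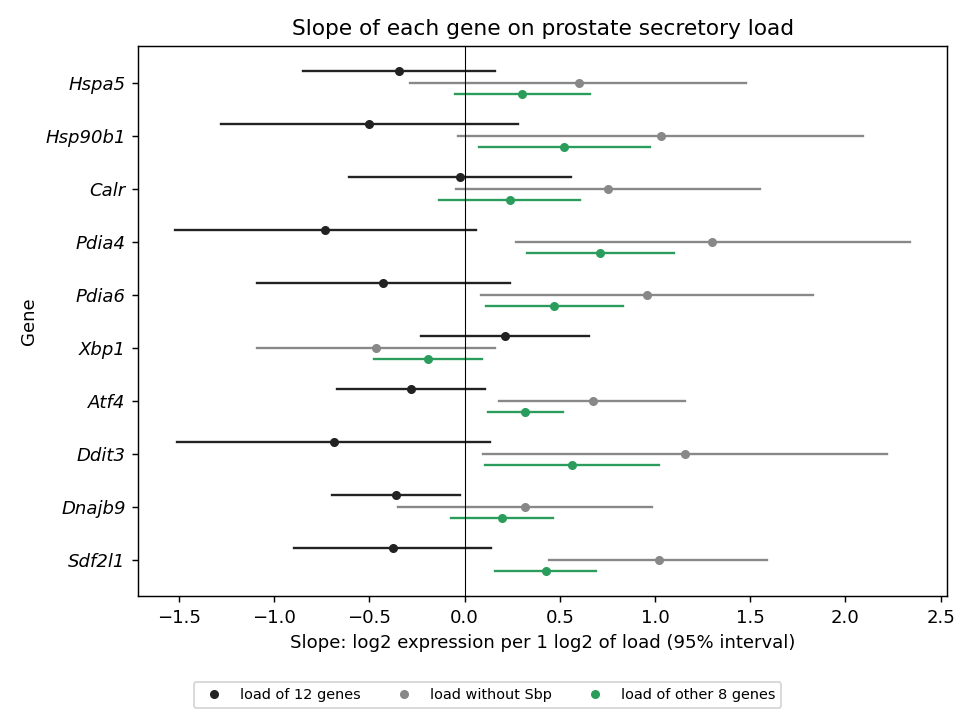
Slope of each of the 10 genes on the log2 prostate secretory load, with its 95% interval, for the load of 12 genes (black), the load without Sbp (grey) and the load of the other 8 genes (green). Slopes are negative for 9 genes with the full load and positive for the same 9 genes with either of the others, and Xbp1 has the opposite sign in each case.

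Of the 101 pathway genes, 3 passed on the 12-gene load, 2 with a positive and 1 with a negative slope. The sensor gene Eif2ak3, which encodes PERK, was at 28.1, 40.1, 38.5 and 65.2 CPM in control 1, 3, 65 and 69 and at 37.4, 48.3, 48.6 and 53.5 CPM in etanercept 17, 19, 50 and 52, with a slope of 0.53 ± 0.13 (SE; edgeR with Benjamini-Hochberg adjustment, adjusted p = 0.0407). Sar1b, the GTPase that starts the coat of ER exit vesicles, was at 75.9, 114, 91.2 and 170 CPM in the controls and at 107, 137, 123 and 120 CPM in the etanercept mice. Eif2ak3 and Sar1b were both lowest in control 1 and highest in control 69, and the groups overlapped. Atf3, a stress-induced factor, was at 26.0, 23.4, 14.1 and 8.44 CPM in the controls and at 31.2, 17.9, 15.9 and 26.8 CPM in the etanercept mice, lowest in control 69. Sar1b had a slope of 0.49 ± 0.12 (adjusted p = 0.0436), and Atf3 one of -0.88 ± 0.19 (edgeR with Benjamini-Hochberg adjustment, adjusted p = 0.0273). Their share of 3 in 101 was below the 8.18% of all genes. Without Sbp in the load, the slopes of all 3 changed sign and none passed, and 0 of the 101 passed without control 1, control 69, etanercept 19 or etanercept 50 in turn. With animal number as a term 0 of the 3 passed (adjusted p in edgeR by Benjamini-Hochberg of 0.179 for Eif2ak3, 0.115 for Sar1b and 0.133 for Atf3), at slopes of 0.47, 0.55 and -0.78. With library size alone Eif2ak3 (slope 0.48, adjusted p = 0.0928) and Sar1b (slope 0.42, adjusted p = 0.1) did not pass in edgeR. Nor did Atf3 with no group term (slope -0.62, adjusted p = 0.19), Eif2ak3 and Sar1b without control 65, Eif2ak3 without etanercept 17, or Sar1b without etanercept 52. Over the sets of mice left out, the slope of Atf3 lay between -0.99 and -0.80, that of Eif2ak3 between 0.40 and 0.61 and that of Sar1b between 0.32 and 0.66. DESeq2 called 17 of the 101 on the full load, near the 18.3% of all genes.

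Markers of other cell types were fitted on the 12-gene load too. The basal epithelium markers, 4 of 4 tested, summed to 354, 294, 258 and 163 CPM in control 1, 3, 65 and 69 and to 196, 152, 119 and 219 CPM in etanercept 17, 19, 50 and 52, with Krt15 the most abundant by mean. All 4 slopes were negative, with a median of -0.53, and Krt5 (-0.66, adjusted p = 0.0409) and Krt14 (-1.41, adjusted p = 0.0138) passed in edgeR by Benjamini-Hochberg. Both were singled out once their values were known. Neither passed on the load without Sbp or with the mean log2 load, where 0 of all tested genes were called. Of the plasma cell markers 4 of 5 tested had negative slopes, with a median of -1.19, and 0 passed in edgeR by Benjamini-Hochberg, with 2 at p of 0.05 or less before adjustment. Median slopes were -1.32 for skeletal muscle markers, -0.37 for leukocyte, -0.13 for adipocyte, -0.03 for smooth muscle, 0.04 for endothelium and 0.33 for fibroblast markers, with 0 genes of these lists passing in edgeR, before or after adjustment. Of the 4 skeletal muscle markers tested, 1 had a positive slope. DESeq2 called 2 basal epithelium markers and 1 plasma cell marker, all with a negative slope, and 0 in the other lists given here. The part of these cell types in the slopes of the ER genes was not tested.

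Seminal vesicle load, the sum of 8 genes, was 0.541, 0, 26.9 and 3994 CPM in control 1, 3, 65 and 69 and 97032, 4.38, 667 and 26.9 CPM in etanercept 17, 19, 50 and 52. Etanercept 17 was far above the rest, and the 0 counts in control 3 allow a level of up to 0.2 CPM per gene. The difference in mean log2 load was 3.95 (exact permutation test, two-sided, p = 0.429), and -0.26 without control 3 and etanercept 17. In edgeR with Benjamini-Hochberg adjustment 0 of the 10 genes and 0 of 15468 genes (0%) passed on this load, with 0 of 10 and 478 (3.09%) at p of 0.05 or less before adjustment, and DESeq2 called 0 of 10 and 59 genes (0.381%). The median slope was 0.02, against -0.003 over all tested genes. Without etanercept 17 the median slope of the 10 genes was -0.01. Of the pathway list 0 genes passed in either tool and 4 were at p of 0.05 or less before adjustment, Edem3 (slope 0.09), Ero1b (0.07), Dad1 (0.05) and Kdelr2 (0.04). Over the sets of mice left out, the smallest slope was 0.025 for Dad1 (without etanercept 17) and 0.01 for Kdelr2 (without control 3 and etanercept 17). It was 0.077 for Edem3 and 0.06 for Ero1b. The other genes among the 2 per role with the smallest p were Ern1, Mbtps2, Creb3l1, Atf3, Trib3, Ppp1r15b, Dnajb9, Dnajc3, Pdia5, Derl3, Stt3b and Sec24b, with slopes between -0.04 and 0.08.

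Immunoglobulin load, the sum of 13 genes, was 13800, 39123, 22573 and 2678 CPM in control 1, 3, 65 and 69 and 8496, 1737, 4625 and 4194 CPM in etanercept 17, 19, 50 and 52. Control 1, 3 and 65 were above every etanercept mouse, and control 69 lay among them. The plasma cell markers summed to 979, 4086, 2387 and 503 CPM in control 1, 3, 65 and 69 and to 1154, 322, 620 and 893 CPM in etanercept 17, 19, 50 and 52, with Jchain the most abundant in control 3 at 3563 CPM. That list shares Jchain with the immunoglobulin load and Derl3 with the ER pathway list. Derl3 was highest in the 3 mice in which the 7 genes were high, at 223 CPM in control 65 and 308 and 317 CPM in etanercept 17 and 52, against at most 108 CPM in the others. The mean log2 load was 13.71 ± 1.67 in control and 12.01 ± 0.94 in etanercept mice (SD over 4 mice; exact permutation test, two-sided, p = 0.143). Without 1 mouse in turn the difference ranged from -2.48 to -1.2. Slopes on this load were positive for 10 of the 10 genes, with a median of 0.15, against 0.02 over all tested genes. Median slopes of markers of other cell types were 1.24 for skeletal muscle, 0.51 for plasma cell, 0.31 for leukocyte and 0.26 for adipocyte markers. They were 0.20 for endothelium, 0.17 for basal epithelium, 0.10 for smooth muscle and 0.05 for fibroblast markers. In edgeR 0 of these markers passed after adjustment. DESeq2 called 2 plasma cell markers, 1 leukocyte marker and 1 skeletal muscle marker, all with a positive slope. Control 3 had both the highest immunoglobulin load and the highest summed skeletal muscle level (1714 CPM), and marker slopes without it are not given. The part of these cell types in the slopes of the 10 genes was not tested. In edgeR with Benjamini-Hochberg adjustment 0 of 10 and 0 of 15460 genes (0%) passed, with 0 of 10 and 1904 (12.3%) at p of 0.05 or less before adjustment, and DESeq2 called 0 of 10 and 440 of 15160 genes (2.9%). The slope of Ddit3 was negative without control 69 (-0.19), that of Xbp1 without control 3 (-0.07) and that of Calr without etanercept 19 (-0.06). Calr was also negative, between -0.03 and 0, with the length trend removed, with no group term and with the mean log2 load. The largest slopes were those of Pdia4 (0.30, 95% interval -0.13 to 0.72) and Hsp90b1 (0.25, -0.13 to 0.62). Their order depended on the mice: without control 69 the slope was 0.54 for Hsp90b1 and 0.40 for Pdia4. Without control 3 and etanercept 17 that of Ddit3 was 0.57. Of the pathway list 0 genes passed in either tool and 4 were at p of 0.05 or less before adjustment, Atf3 (slope 0.34), Sar1b (-0.18), Sec31a (-0.14) and Sec24b (0.18), the last of which was named after its value was seen. Without control 69 the slopes were 0.19 for Atf3, 0.01 for Sar1b and -0.06 for Sec31a. The other genes among the 2 per role with the smallest p were Eif2ak3, Atf6b, Ddit3, Sesn2, Asns, Creld2, Dnajb9, P4hb, Pdia4, Selenos, Selenok, Srp72 and Srp68, with slopes between -0.24 and 0.46.

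The promoters of the 10 genes were searched for motifs of the unfolded protein response. RefSeq promoter sequences of GRCm38.p6, from 250 bases before to 50 bases after the start, were matched for 10 of 10 genes. The ER stress element, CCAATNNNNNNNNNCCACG, was found on either strand in 4 of them, Hspa5, Hsp90b1 (with 2 matches), Calr and Pdia6, and in 39 of all 32851 promoters (0.119%). The second element ATTGGNCCACG (0.0365% of all promoters), the UPR element TGACGTGG (0.676%) and the amino acid response motif TGATGNAAT (0.965%) were found in 0 of the 10. Because the 10 genes were chosen by name for this response, these counts do not test a link between motif and level. Of the 7 genes that varied together, Pdia4, Atf4 and Sdf2l1 had no match. A match is a description of the letters and not of a bound site. For Hspa5 the RefSeq start lies downstream of the GENCODE start, so that its match falls inside the gene position given above. The matches are shown with 15 bases on either side, on the strand of the gene, with the motif in capitals (as its reverse complement for Calr and for the second match of Hsp90b1).

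Hspa5, chr2:34772010-34772058, plus strand: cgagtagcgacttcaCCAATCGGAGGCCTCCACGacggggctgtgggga
Hsp90b1, chr10:86705623-86705671, minus strand: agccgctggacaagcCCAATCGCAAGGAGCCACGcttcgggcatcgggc
Hsp90b1, chr10:86705518-86705566, minus strand: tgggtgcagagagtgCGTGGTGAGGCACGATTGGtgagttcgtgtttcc
Calr, chr8:84847060-84847108, minus strand: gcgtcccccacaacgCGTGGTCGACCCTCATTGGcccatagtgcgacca
Pdia6, chr12:17266476-17266524, plus strand: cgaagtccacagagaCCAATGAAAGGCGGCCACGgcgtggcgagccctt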

How the data were processed

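The deposited values are gene counts, which the authors made with fastp, STAR 2.6.1d and featureCounts 1.5.0-p3 on mm10 (GRCm38) according to the submitters' notes; the strand setting is not stated. Their own test used DESeq2 1.26.0. From the counts onward, edgeR 4.0.16 in R 4.3.3 was run with TMM scaling, a filter at a minimum count of 10 and quasi-likelihood tests, with genes called where p, adjusted by Benjamini-Hochberg over all tested genes, was 0.05 or less. DESeq2 1.42.0 was run as an alternative. Slope fits held the group and the log2 of the summed CPM of a list plus 1, and tested genes outside that list. Symbols came from GENCODE M21, where 37 identifiers had no entry. The members and lists were chosen with earlier results of these data known. Named genes were all 10 members, every pathway gene called in edgeR for treatment or on 1 of the 3 loads or, where 0 were called, the 2 per role with the smallest p, and the 10 genes most like the members' mean z-score. Other scalings, filters, covariates, definitions of load and sets of mice were tried as alternatives. Intervals and floors (3 counts) cover counting error only where they rest on counts of 1 mouse. The summed level of the luminal marker list is not reported here.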

Additional observations from a re-analysis of the deposited data

Results flagged for a closer look

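Levels of the 10 genes and the loads were examined on the log2 scale, in 26 groups of 4 mice. On that scale 0 groups had a mouse past Dixon's 95% critical value for the gap to its nearest neighbour divided by the range. This does not cover gaps in CPM.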

How the results depend on the processing

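Over 85 single-gene results, 1787 alternative values were computed: 1658 kept their direction and their side of the threshold, 1 passed where it had not, 28 no longer passed and 100 changed direction. The cause was not tested for any change given here. With 4 mice a group, small differences were not detectable: the 95% interval of the change of Hspa5 reached from -0.67 to 0.71. Leaving out control 3 and etanercept 17 together, and dividing the prostate list into Sbp, Sbpl, Spink1 and Msmb and the other 8 genes, were chosen after seeing the data.

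Between etanercept and control mice, 0 genes were called by edgeR (1024 before adjustment at p of 0.05 or less) and 25 by DESeq2. The log2 change of Hspa5 was -0.0539 with library size alone, -0.00156 with scaling outside the load genes and the 50 most abundant genes, and -0.0012 with the length trend removed. Atf4 was at -0.0309 with library size alone. Sdf2l1 was at 0.127 with the length trend removed, at 0.0042 with prostate load as a covariate and at 0.0855 with immunoglobulin load as a covariate. Without 1 mouse in turn or without both libraries, the change ranged from -0.241 to 0.191 for Hspa5, -0.186 to 0.2 for Calr, -0.0861 to 0.645 for Pdia4, -0.095 to 0.412 for Pdia6, -0.0895 to 0.19 for Atf4, -0.125 to 0.251 for Dnajb9 and -0.39 to 0.0849 for Sdf2l1.

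On prostate load, the genes called numbered 2444 with DESeq2, 346 with animal number as a term, 0 without Sbp, 0 with the mean log2 load, 723 with the load of Sbp, Sbpl, Spink1 and Msmb and 182 with that of the other 8 genes. Without mice they ranged from 243 to 2054. Pathway genes called numbered 17 with DESeq2, 6 with 10 counts in every mouse, 0 with animal number, without Sbp and with the mean log2 load, 1 with either divided load, and from 0 to 8 without mice. Members called ranged from 0 to 1 without mice. Without Sbp the slope was 0.599 for Hspa5, 1.03 for Hsp90b1, 0.751 for Calr, 1.3 for Pdia4, 0.956 for Pdia6, -0.464 for Xbp1, 0.673 for Atf4, 1.16 for Ddit3, 0.317 for Dnajb9, 1.02 for Sdf2l1, -0.403 for Sar1b, 0.365 for Atf3 and -0.221 for Eif2ak3. On the other 8 genes it was 0.303 for Hspa5, 0.523 for Hsp90b1, 0.236 for Calr, 0.712 for Pdia4, 0.471 for Pdia6, -0.193 for Xbp1, 0.319 for Atf4, 0.562 for Ddit3, 0.197 for Dnajb9, 0.427 for Sdf2l1, -0.298 for Sar1b, 0.441 for Atf3 and -0.25 for Eif2ak3. With the mean log2 load it was 0.0341 for Hsp90b1, 0.164 for Calr and 0.00159 for Pdia6. The slope of Calr ranged from -0.334 to 0.0828 without mice.

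On seminal vesicle load, 59 genes were called by DESeq2 and 1 with no count filter, and 0 to 1 without mice. The slope of Atf4 was 9.97e-05 with scaling outside the load genes and the 50 most abundant genes and 0.00105 with no group term, where that of Pdia4 was 0.00919. Without mice the slope ranged from -0.117 to 0.019 for Atf3, -0.00711 to 0.0656 for Dnajb9, -0.0295 to 0.116 for Pdia5, -0.00113 to 0.109 for Derl3, -0.00983 to 0.0505 for Hspa5, -0.0188 to 0.0573 for Hsp90b1, -0.0806 to 0.0379 for Pdia4, -0.0403 to 0.0468 for Pdia6, -0.0287 to 0.027 for Xbp1, -0.0403 to 0.016 for Atf4, -0.108 to 0.0273 for Ddit3 and -0.029 to 0.0492 for Sdf2l1.

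On immunoglobulin load, the genes called numbered 440 with DESeq2, 11 with no count filter, 2 with 10 counts in every mouse, 2 with a robust fit, 1 with the length trend removed, 10 with no group term, 2 without the most abundant gene of the load, 2 with the mean log2 load and 0 to 4 without mice. The slope of Calr was -0.00999 with the length trend removed, -0.00759 with no group term and -0.0287 with the mean log2 load, and that of Asns was -0.0919 with no group term. Without mice the slope ranged from -0.269 to 0.00531 for Eif2ak3, -0.186 to 0.567 for Ddit3, -0.299 to 0.011 for Sar1b, -0.0592 to 0.197 for Calr and -0.0739 to 0.0799 for Xbp1. The difference in log2 load between the groups ranged from 0.18 to 0.764 for prostate load, from -0.26 to 6.5 for seminal vesicle load and from -2.48 to -1.2 for immunoglobulin load.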
